A study of Mus musculus with 12 samples.

Results

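U3 is the small nucleolar RNA that the mouse genome carries in 5 annotated copies named here, Snord3a, Snord3b1, Snord3b2, Snord3b3 and Snord3b4, and these 5 of the 40840 genes listed for each library are described below. They were found by gene name, and U3 was selected on its measured levels across the diet groups of these same libraries, so its own levels are given as a description with no test. A fraction of liver immune cells, prepared to hold hepatic macrophages, gave the total RNA of 12 male mice in 4 groups of 3. The groups were wild-type mice, C57BL/6 in the labels and C57BL/6J in the study's methods, on normal chow (WT-NCD), wild-type mice on a high-fat diet (WT-HFD), and caspase-11 knockout mice of the strain B6.129S4(D2)-Casp4tm1Yuan/J on either diet (Casp11-/- NCD and Casp11-/- HFD). The mice were 8 to 10 weeks old at the start and were kept on their diet for 12 weeks. The knockout removes caspase-11, which is encoded by Casp4, from every cell of the mouse.

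U3 is a box C/D small nucleolar RNA, a class of short RNAs of the nucleolus that carry the sequence elements box C and box D and bind a shared set of proteins. Most of the class guide chemical modification of ribosomal RNA, whereas U3 base-pairs with the precursor of ribosomal RNA and is needed for the early cuts that release 18S RNA, inside a large assembly called the small-subunit processome. Unlike most small nucleolar RNAs, which are cut out of introns, U3 is transcribed by RNA polymerase II from a promoter of its own and receives a trimethylated cap.

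The sequences of the copies are shown because they decide which copies reads can tell apart. The transcripts of Snord3b1 to Snord3b4 were identical over their whole length of 215 bases. They are written once, 5′ to 3′ and as DNA letters, with the letters of box C (TGATGA) and of the last box D (CTGA) in capitals. Snord3a, of 213 bases, follows, with capitals at the 29 bases that differ by substitution from Snord3b.
Snord3b1 to Snord3b4: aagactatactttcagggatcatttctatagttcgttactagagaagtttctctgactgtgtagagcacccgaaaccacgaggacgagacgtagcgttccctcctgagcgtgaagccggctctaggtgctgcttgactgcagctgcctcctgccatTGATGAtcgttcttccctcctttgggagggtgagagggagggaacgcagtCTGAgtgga
Snord3a: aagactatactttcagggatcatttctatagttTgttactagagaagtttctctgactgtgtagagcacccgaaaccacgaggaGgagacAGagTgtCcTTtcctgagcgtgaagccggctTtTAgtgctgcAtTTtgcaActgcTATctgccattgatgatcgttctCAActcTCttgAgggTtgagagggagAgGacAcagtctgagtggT

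Aligned end to end, Snord3a and Snord3b were identical at 184 of 215 positions (85.6%), with 29 substitutions and 2 bases present only in Snord3b. The differences were uneven along the RNA, with 2 substitutions in the first 85 bases and 27 beyond them, and the longest shared run was 50 bases. No window of 75 bases, the read length, was shared by Snord3a and Snord3b, whereas all 141 such windows were shared among the 4 Snord3b copies. A read that lies within the RNA can therefore be placed on Snord3a or on Snord3b, but not on 1 Snord3b copy rather than another. On the strand shown, box C letters were found at bases 157 to 162 of Snord3b and 156 to 161 of Snord3a, and the last box D letters ended 5 bases before the 3′ end in both. Both sets of letters were found in 25.2% of the 1507 annotated mouse snoRNA transcripts. The sequences and coordinates are those of GENCODE vM21, on the mouse build GRCm38 (mm10), and RefSeq for the same build gives 212 bases for Snord3a and 218 for Snord3b4.

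The Snord3b copies lie together on the plus strand of chromosome 11, spread over 28346 bases inside introns of Tex14, which runs on the same strand and has no annotated exon at any of them. In order along the chromosome they are Snord3b1 (87443237 to 87443451), Snord3b3 (87448627 to 87448841), Snord3b4 (87462286 to 87462500) and Snord3b2 (87471368 to 87471582). Snord3a lies alone on chromosome 10 (40258467 to 40258679, plus strand). The annotations name these genes Rnu3a and Rnu3b1 to Rnu3b4. Other U3-like genes listed in the files shared no 75-base window with U3. Of these, Gm24949 and Gm25203 stayed at the lowest listed value in all 11 libraries that hold reads, and Gm24826 reached at most 8.31 TPM.

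TPM, the unit of the values, counts reads relative to gene length and sets all libraries to nearly the same total, so levels of different genes can be compared per length. No gene was listed below 1.01 TPM, called the floor here. The file labelled WT-NCD replicate 3 held no measurement of RNA. For all 3551 small RNA genes checked, its value multiplied by the RefSeq length of the gene gave 1 constant, with a spread of 0.00886%, so its values follow gene length alone. In the other 11 libraries the same product rose in equal steps of whole reads plus 0.5 read per gene, and 99.9% to 100% of the values under 200 reads came out whole within 0.1 read. The recovered depth was 1782520 to 10701273 reads on HFD (median 3990208, n = 6) and 6275110 to 11822192 reads on NCD (median 9360336, n = 5), and the part of depth in the results was not tested. U3 values below therefore use 2 WT-NCD libraries, except where all 12 files or the file without reads are named. Counts of called list members are given for the fit of all 12 files and without WT-NCD replicate 3.

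Of 11 markers of Kupffer cells, the resident macrophages of the liver, only Marco was at the floor throughout a group, in both NCD groups. The 11 markers summed to 343 to 986 TPM on HFD and 83.8 to 605 TPM on NCD. Markers of other cells were present as well. The summed level of 5 hepatocyte markers, Alb among them, was 8171 to 16349 TPM on HFD and 5941 to 22203 TPM on NCD and so above the Kupffer cell sum. The sums of some other lists lay apart between the diets. The 4 B cell markers summed to 117 to 253 TPM on HFD and 363 to 1378 TPM on NCD. The 4 NK cell markers summed to 77.7 to 141 and 228 to 530 TPM, and the 3 erythroid markers to 226 to 608 and 682 to 14309 TPM, in the same order. The 4 T cell markers summed to 54.7 to 155 TPM on HFD and 82.9 to 400 on NCD, and the 4 neutrophil markers to 99.0 to 3973 and 263 to 921, both with overlap. The 4 sinusoidal endothelial markers gave 124 to 702 TPM on HFD and 22.4 to 239 TPM on NCD, and 3 proliferation markers 10.1 to 27.1 and 13.8 to 33.8. With the TPM of U3 removed and each library rescaled to a common total, sinusoidal endothelial markers were at 292 to 925 on HFD and 22.2 to 243 on NCD, and stellate cell markers at 26.9 to 82.5 and 11.6 to 14.9. On that scale the lists that had lain apart overlapped, but their medians stayed lower on HFD. B cell markers were at 214 to 425 on HFD (median 296) and 373 to 1397 on NCD (median 1224). NK cell markers were at 145 to 246 (median 164) and 231 to 530 (median 339), in the same order. Erythroid markers were at 473 to 900.2 (median 643) and 694 to 14514 (median 2619). Kupffer cell markers were at 589 to 1615 on HFD (median 848) and 86.2 to 614 on NCD (median 222). The part of cell composition in the U3 levels was not tested, and in such bulk samples fewer cells of a type and less RNA per cell cannot be told apart. Casp4, the targeted gene, was at 5.60 to 15.6 TPM in the 5 WT libraries and 2.56 to 15.2 TPM in the 6 Casp11-/- libraries, so its level over the whole gene did not separate the genotypes, and a value per gene does not show which exons were read.

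Snord3b4 was the highest U3 copy in every library that holds reads. Its level was 28944 and 16316 TPM in WT-NCD replicates 1 and 2, and 219373, 430602 and 309363 TPM in WT-HFD replicates 1 to 3. In Casp11-/- NCD replicates 1 to 3 it was 9287, 37122 and 22899 TPM, and in Casp11-/- HFD it was 388355, 242063 and 196475 TPM. Every HFD library lay above every NCD library, and the lowest HFD value was 5.29 times the highest NCD value. The mean was 14.1 times higher on HFD in WT mice and 11.9 times higher in Casp11-/- mice. In all 6 HFD libraries Snord3b4 was the gene of highest TPM, whereas its rank among all genes was 4 to 9 on NCD.

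Snord3b3, with the same sequence, followed the same order of libraries at a lower level. In WT mice it reached 8024 and 4454 TPM on NCD and 79351, 157503 and 108853 TPM on HFD. In Casp11-/- mice it reached 2687, 10427 and 6127 TPM on NCD and 142241, 85639 and 63481 TPM on HFD. The groups again did not overlap between diets, with means 18.5 times higher on HFD in WT mice and 15.1 times higher in Casp11-/- mice. Snord3b1 and Snord3b2 were at the floor in all 11 libraries, which corresponds to at most 2 reads in any of them, although their transcripts are identical to those of Snord3b3 and Snord3b4. How the counting divided reads among these copies is not given in the sources used here. The levels of single Snord3b copies are therefore uncertain, and whether shared reads were divided, counted more than once or dropped was not tested.

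Snord3a, which reads can separate from the others, was far lower and also higher on HFD. In WT mice it reached 1094 and 915 TPM on NCD and 3466, 9058 and 5749 TPM on HFD. In Casp11-/- mice it reached 676, 1947 and 1828 TPM on NCD and 7502, 4669 and 3399 TPM on HFD. Its means were 6.07 times higher on HFD in WT mice and 3.50 times higher in Casp11-/- mice, and its lowest HFD value was 1.75 times its highest NCD value. All 3 measured copies were thus without overlap between diets. Among the 13527 genes with at least 10 reads in at least 3 libraries, every HFD library lay above every NCD library for 0.495% and below for 7.33%. Diet contrasts served to choose U3, so nothing is read from that comparison.

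**Figure D1:**
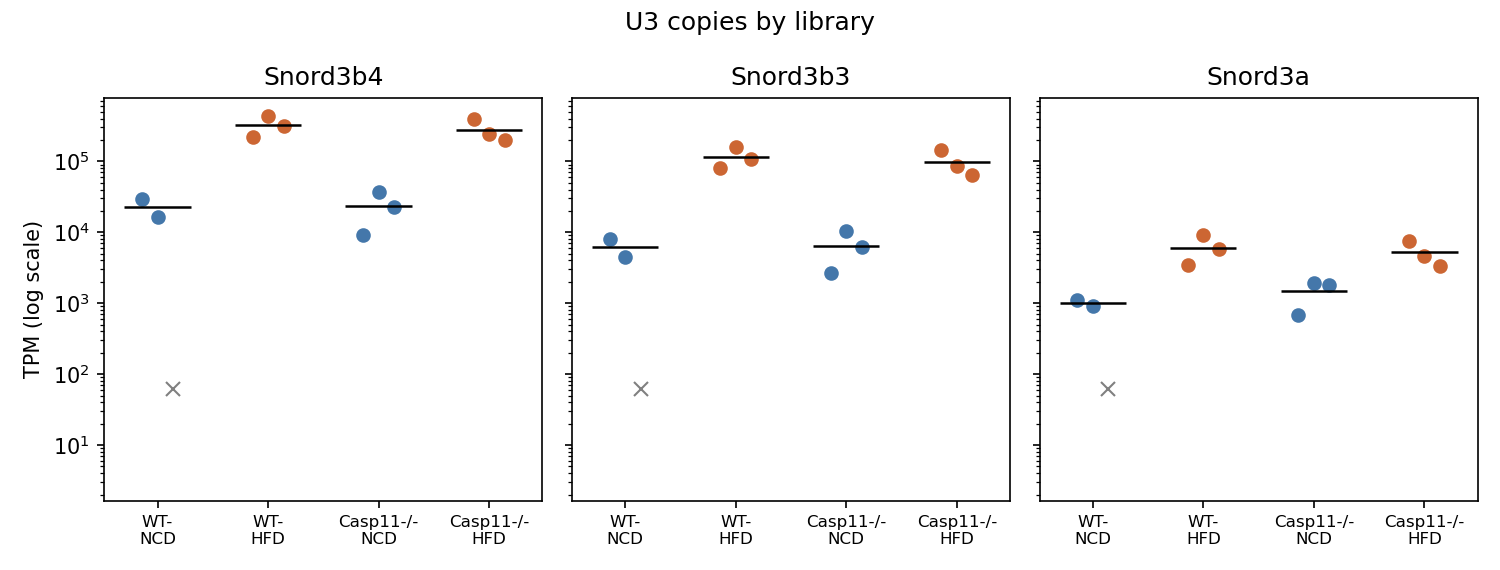
TPM on a log scale of Snord3b4, Snord3b3 and Snord3a in each library of the 4 groups. Points are libraries, lines are group means over libraries that hold reads, and the grey cross is the WT-NCD file without reads; every HFD point lies above every NCD point for each copy.

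The copies summed to a large share of each HFD library. U3 took 3.73% and 2.12% of TPM in WT-NCD, and 29.7%, 58.5% and 41.6% in WT-HFD. In Casp11-/- NCD it took 1.24%, 4.84% and 3.03%, and in Casp11-/- HFD 52.9%, 32.6% and 25.8%. The group means were 2.93% ± 1.13 (SD, n = 2) in WT-NCD, 3.04% ± 1.80 (SD, n = 3) in Casp11-/- NCD, 37.1% ± 14.1 (SD, n = 3) in Casp11-/- HFD and 43.3% ± 14.5 (SD, n = 3) in WT-HFD. In this order, the neighbours within a diet overlapped and differed by less than their SD, and only the step from Casp11-/- NCD to Casp11-/- HFD had no overlap. With the WT-NCD file that holds no reads, that group would stand at 1.96% ± 1.85 (SD, n = 3). Between genotypes, the WT-HFD mean was 1.17 times the Casp11-/- HFD mean, and the Casp11-/- NCD mean was 1.04 times that of WT-NCD. The HFD mean exceeded the NCD mean by 40.3 percentage points in WT mice and by 34.0 in Casp11-/- mice.

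Because TPM divides by length, a short RNA takes a larger share of TPM than of reads. In recovered reads, U3 took 0.712% and 0.377% in WT-NCD, 7.58%, 20.6% and 9.68% in WT-HFD, 0.218%, 1.26% and 0.412% in Casp11-/- NCD, and 16.6%, 8.53% and 6.33% in Casp11-/- HFD. The Wilson 95% interval of each share was at most 0.0547 percentage points to either side, which covers counting error only, so the spread between libraries of a group was far wider than counting error. The mean share of reads was 23.1 times higher on HFD in WT mice and 16.6 times higher in Casp11-/- mice. The total of recovered reads leaves out genes longer than 13215 bases, and this raises each share. Those genes held 0.341% to 1.10% of TPM and, since TPM divides by length, a larger part of reads, which was not computed. Estimated from annotated exonic lengths instead, the shares of U3 were lower, at 0.158% to 0.979% on NCD and 4.74% to 15.4% on HFD.

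**Figure D2:**
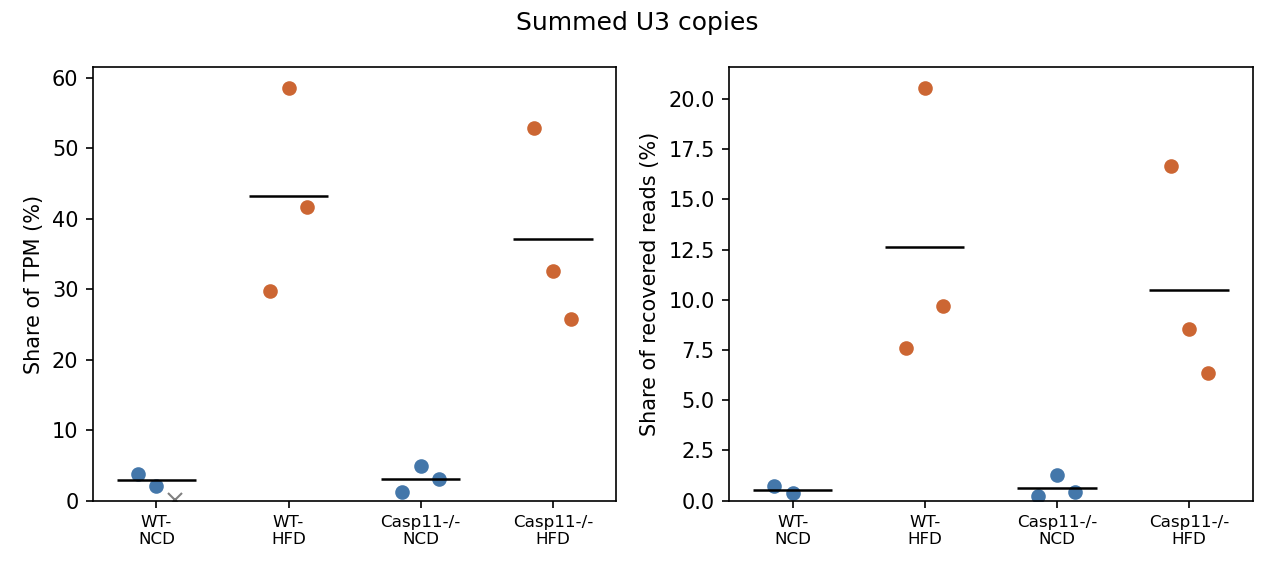
Share of the summed U3 copies in percent of TPM (left) and in percent of recovered reads (right). Points are libraries and lines are group means over libraries that hold reads. The grey cross, in the left panel only, is the WT-NCD file without reads. HFD libraries lie at 25.8% to 58.5% of TPM and 6.33% to 20.6% of reads, and NCD libraries at 1.24% to 4.84% and 0.218% to 1.26%.

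U3 is also described relative to other measures of the same library, with ratios built from the values that chose U3. Per TPM of protein-coding genes, U3 stood at 0.0338 to 0.217 on NCD and at 1.13 to 3.74 on HFD. Per TPM of the 1330 other snoRNA genes, it stood at 1.11 to 3.54 on NCD and at 25.5 to 34.6 on HFD. Against Rmrp, the RNA of the RNase MRP enzyme, which also takes part in ribosomal RNA processing and is transcribed by RNA polymerase III, the ratio of U3 was 0.726 to 1.35 on NCD and 7.76 to 21.3 on HFD. Against Rn7sk, the 7SK RNA that holds the elongation factor P-TEFb inactive, it was 0.0741 to 0.725 and 4.84 to 20.8. Under each of these denominators the diets did not overlap, and nothing is read from that. Rn7sk was itself lower on HFD, at 25835 to 54426 TPM beside 68319 to 195531 TPM on NCD. The other snoRNA genes include genes without reads, whose values rest on the added 0.5 read and move with depth.

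The ratios among the copies, as listed, differed between diets as well. Snord3b4 stood at 3.46 to 3.74 times the TPM of Snord3b3 in the 5 NCD libraries (mean 3.60 ± 0.106, SD) and at 2.73 to 3.10 times in the 6 HFD libraries (mean 2.83 ± 0.137, SD). Within HFD, the library with the highest ratio, Casp11-/- HFD replicate 3, was the one with the lowest U3 share. The Snord3b copies together stood at 15.9 to 33.8 times Snord3a on NCD and at 64.9 to 86.2 times on HFD. Snord3a accordingly made up 2.87% to 5.92% of U3 TPM on NCD and 1.15% to 1.52% on HFD. These ratios are built from the values that chose U3 and carry no test. Snord3b4 and Snord3b3 share 215 identical bases that reads cannot tell apart, so the levels behind their ratio are uncertain. The lengths behind the listed values were 218 bases for Snord3b4 and 215 for Snord3b3.

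**Figure D3:**
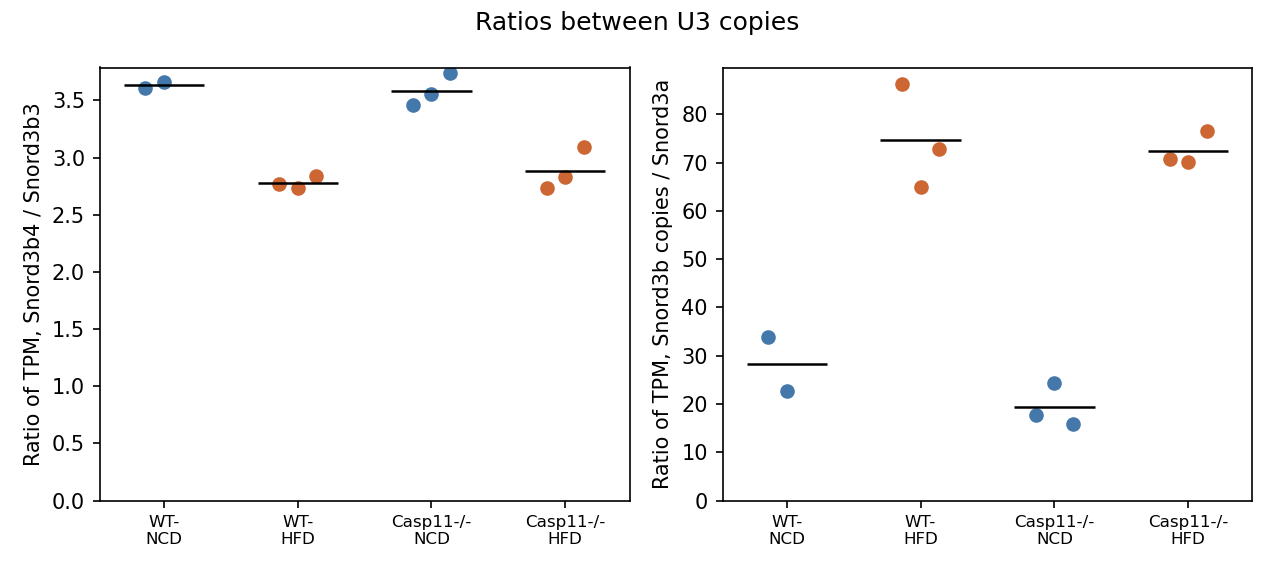
Ratio of TPM of Snord3b4 to Snord3b3 (left) and of the summed Snord3b copies to Snord3a (right) in the 11 libraries that hold reads, with points for libraries and lines for group means. The first ratio is lower on HFD (2.73 to 3.10) than on NCD (3.46 to 3.74), and the second is higher (64.9 to 86.2 against 15.9 to 33.8).

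The proteins that join U3 were measured in the same libraries, and the question was whether their messenger RNAs changed with diet. The core proteins are fibrillarin (Fbl), the methyltransferase of the particle, Nop56 and Nop58, which form its scaffold, Snu13, which binds the fold made by the box C and D elements, and Rrp9, which is particular to U3. Fbl was at 9.72 to 22.0 TPM on HFD (median 14.8, n = 6) and 15.0 to 43.9 TPM on NCD (median 41.3, n = 5), with overlap through Casp11-/- NCD replicate 2. Nop56 was at 1.87 to 4.50 TPM on HFD and 4.54 to 14.2 TPM on NCD, without overlap. Snu13 reached 14.8 to 28.5 TPM on HFD and 17.5 to 58.6 on NCD, Nop58 4.73 to 10.1 and 7.35 to 15.7, and Rrp9 1.01 to 4.97 and 4.19 to 8.01. None of the 5 core genes therefore followed U3 upward in TPM.

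These genes were tested with limma on log2(TPM + 1), HFD minus NCD over both genotypes, with Benjamini-Hochberg adjustment over all genes tested. In the fit of all 12 libraries, 0 of the 5 core genes passed an adjusted p of 0.05, where 0.041% of 19498 genes were called higher and 0.513% lower. An unadjusted limma p under 0.05 was found for 2 of the 5 core genes and for 3282 of all 19498 genes. Without the file that holds no reads, and over the 13527 genes with at least 10 reads in at least 3 libraries, 3 of the 5 fell in TPM: Nop56 (log2 difference -1.24, adjusted p = 0.0205), Fbl (-1.12, adjusted p = 0.0312) and Rrp9 (-0.97, adjusted p = 0.0372). In that fit 27.9% of all genes were called lower and 1.68% higher, and the median difference of all genes was -0.59. Without that file but with genes kept by TPM, if they exceeded the floor in 3 libraries, 2 of the 5 passed, and Rrp9 had an adjusted p of 0.0565 in limma. Of the 17950 genes tested there, 3097 were called lower and 192 higher. With the U3 copies removed and the other genes rescaled to a common total, the median of all genes moved to -0.01, 2.85% of genes were called lower and 6.37% higher, and 0 of the 5 core genes passed, with 0 at an unadjusted p under 0.05. limma voom on the recovered reads also called 0 of the 5, with 1 at an unadjusted p under 0.05. Its library totals left out the U3 reads, here and below, so it is not a scale that keeps U3. With U3 removed, Nop56 differed by -0.66 (95% interval -1.36 to 0.03), Fbl by -0.43 (-1.17 to 0.31) and Nop58 by 0.14 (-0.56 to 0.84).

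The wider small-subunit processome, in which U3 acts, was listed with 29 proteins, all of which had at least 10 reads in at least 3 libraries. In the fit of all libraries 0 passed and 10 had an unadjusted p under 0.05, as did 3282 of all 19498 genes. Without the empty file, 12 of the 29 fell in TPM and 0 rose, where 27.9% of all genes fell, with a median of -0.86 beside -0.59 for all genes. With U3 removed 0 of 29 passed (0 at an unadjusted p under 0.05, and 0 passed by limma voom), and the median was -0.24 beside -0.01. Emg1, a methyltransferase of 18S RNA and the most abundant member, was at 12 to 23.8 TPM on HFD and 21.9 to 56.4 on NCD, a log2 difference of -1.15 (adjusted p = 0.0252) as deposited and -0.46 (adjusted p = 0.481) with U3 removed. Fcf1, the next in abundance, differed by -0.63 (adjusted p = 0.207) and 0.06 (adjusted p = 0.952).

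Genes for the transcription, capping, export and assembly of U3 formed the third list. Of its 21 members, 0 passed in the fit of all libraries and 7 had an unadjusted p under 0.05, as did 3282 of all 19498 genes. Of the 19 with enough reads, 7 fell in TPM without the empty file, where 27.9% of all genes fell, with a median of -0.73 beside -0.59 for all genes. Of these 19, 0 passed with U3 removed (0 at an unadjusted p under 0.05, and 0 passed by limma voom), where the median was -0.22 beside -0.01. Xpo1, the exportin that also carries U3 precursors, was at 14.3 to 28.8 TPM on HFD and 13.6 to 51.8 on NCD, with log2 differences of -0.34 (adjusted p = 0.446) and 0.36 (adjusted p = 0.621). Ncbp1, a subunit of the nuclear cap-binding complex, fell by 0.995 on the log2 scale in TPM (adjusted p = 0.0471, and 0.0581 with genes kept by TPM), and its difference was -0.33 with U3 removed (adjusted p = 0.64).

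Other small nucleolar RNAs were mostly without reads. Of 94 other box C/D genes listed by name, 88 had no read in any of the 11 libraries and 4 had at least 10 reads in at least 3, and of 39 H/ACA genes, the class that guides pseudouridylation, 16 had none and 9 had enough. Values of genes without reads rest on the added 0.5 read and move with depth, so only the genes with reads are described. In the fit of all libraries 0 of the 94 and 0 of the 39 passed, with 0 and 2 at an unadjusted p under 0.05. Of all 19498 genes in that fit, 3282 had such a p. Snord17, the most abundant of the other box C/D RNAs, was at 270 to 625 TPM on HFD and 432 to 2729 TPM on NCD, with a log2 difference of -0.93 (adjusted p = 0.125) in TPM and -0.20 (adjusted p = 0.855) with U3 removed. Snord94, which guides a modification of the U6 spliceosomal RNA, was at 383 to 872 TPM on HFD and 87.0 to 624 on NCD. Its difference was 1.27 in TPM (adjusted p = 0.0561), and with U3 removed it rose by 2.001 (95% interval 0.97 to 3.04, adjusted p = 0.0112), the only 1 of the 4 to pass. The median of the 4 was 1.23 and that of the 9 H/ACA genes 0.75 with U3 removed, beside -0.01 for all genes.

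Among H/ACA RNAs, Snora73b, a U17 RNA that takes part in the same early cuts as U3 rather than in modification, was at 1593 to 3380 TPM on HFD and 1512 to 3787 on NCD. Its log2 difference was 0.18 in TPM (adjusted p = 0.746) and 0.90 with U3 removed (adjusted p = 0.233). Snora23 differed by 0.02 (adjusted p = 0.967) and 0.75 (adjusted p = 0.357). The H/ACA gene that passed in both scales, named after its values were seen, was Snora17, at 6.08 to 40.3 TPM on HFD and 1.35 to 7.65 TPM on NCD. It rose by 1.84 on the log2 scale in TPM (adjusted p = 0.0163) and was not called by limma voom (adjusted p = 0.162). The lowest NCD value of Snora17 lay near the floor of 1.01 TPM, and the part of depth in its difference was not tested. Scarna13, the 1 Cajal body RNA of 9 with enough reads, differed by -0.52 (adjusted p = 0.247) and 0.20 (adjusted p = 0.811), and Scarna9 had no read. In the fit of all libraries 0 of 15 host genes of small nucleolar RNAs passed, with 10 at an unadjusted p under 0.05. Of all 19498 genes in that fit, 3282 had such a p. Of the 13 with enough reads, 5 fell in TPM without the empty file, where 27.9% of all genes fell, with a median of -0.82 beside -0.59 for all genes, and 0 passed with U3 removed (2 at an unadjusted p under 0.05, and 0 passed by limma voom). The most abundant of them, Snhg3 and Snhg1, differed by -0.80 (adjusted p = 0.117) and -0.92 (adjusted p = 0.0721) in TPM.

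The most abundant other noncoding genes were short structured RNAs. The 7SL RNAs of the signal recognition particle, Rn7s1 and Rn7s2, together took 12.4% to 35.8% of TPM on HFD and 14.5% to 52.8% on NCD. Their log2 differences with U3 removed were 0.37 (adjusted p = 0.777) and 0.27 (adjusted p = 0.843). Rn7sk was at 25835 to 54426 TPM on HFD and 68319 to 195531 TPM on NCD, without overlap. It fell by 1.73 on the log2 scale in TPM without the empty file over genes with enough reads (adjusted p = 0.0389), and did not pass with genes kept by TPM (adjusted p = 0.113). limma voom on the reads called it, at -0.999 (adjusted p = 0.0392), and with U3 removed its difference was -1.0002 (95% interval -2.15 to 0.15, adjusted p = 0.311). In the fit of all 12 libraries the difference of Rn7sk was 0.23 (adjusted p = 0.992). Rmrp was at 28037 to 39623 TPM on HFD and 17439 to 41019 on NCD, and Rpph1, the RNA of RNase P, at 6869 to 19921 and 17306 to 23706. With U3 removed they differed by 0.96 (adjusted p = 0.291) and -0.09 (adjusted p = 0.944).

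Terc, the RNA of telomerase, was the 1 list member called in the fit of all 12 libraries, where it fell by 1.74 on the log2 scale (adjusted p = 0.0213). That fit counts 33.5 TPM from the WT-NCD file without reads, a value that follows gene length alone and is no measurement of Terc. Without that file, in limma over genes with enough reads, Terc fell by 1.78 (adjusted p = 0.00139). It was at 40.5 and 40.6 TPM in WT-NCD, 8.59, 5.32 and 11.8 in WT-HFD, 40.9, 42.3 and 46.1 in Casp11-/- NCD, and 14.4, 13.9 and 19.9 in Casp11-/- HFD. The diets did not overlap, and the fall was 1.10 with U3 removed (95% interval -1.76 to -0.44, adjusted p = 0.0283). limma voom on the reads gave -1.10 (adjusted p = 0.0842). Vaultrc5, a vault RNA named after its values were seen, was the other of the 8 short structured RNAs with enough reads to pass with U3 removed. It was at 23.6 to 97.6 TPM on HFD and 2.15 to 42.5 TPM on NCD and rose by 3.15 on the log2 scale (adjusted p = 7.3e-04), and limma voom also called it (adjusted p = 0.0254).

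**Figure D4:**
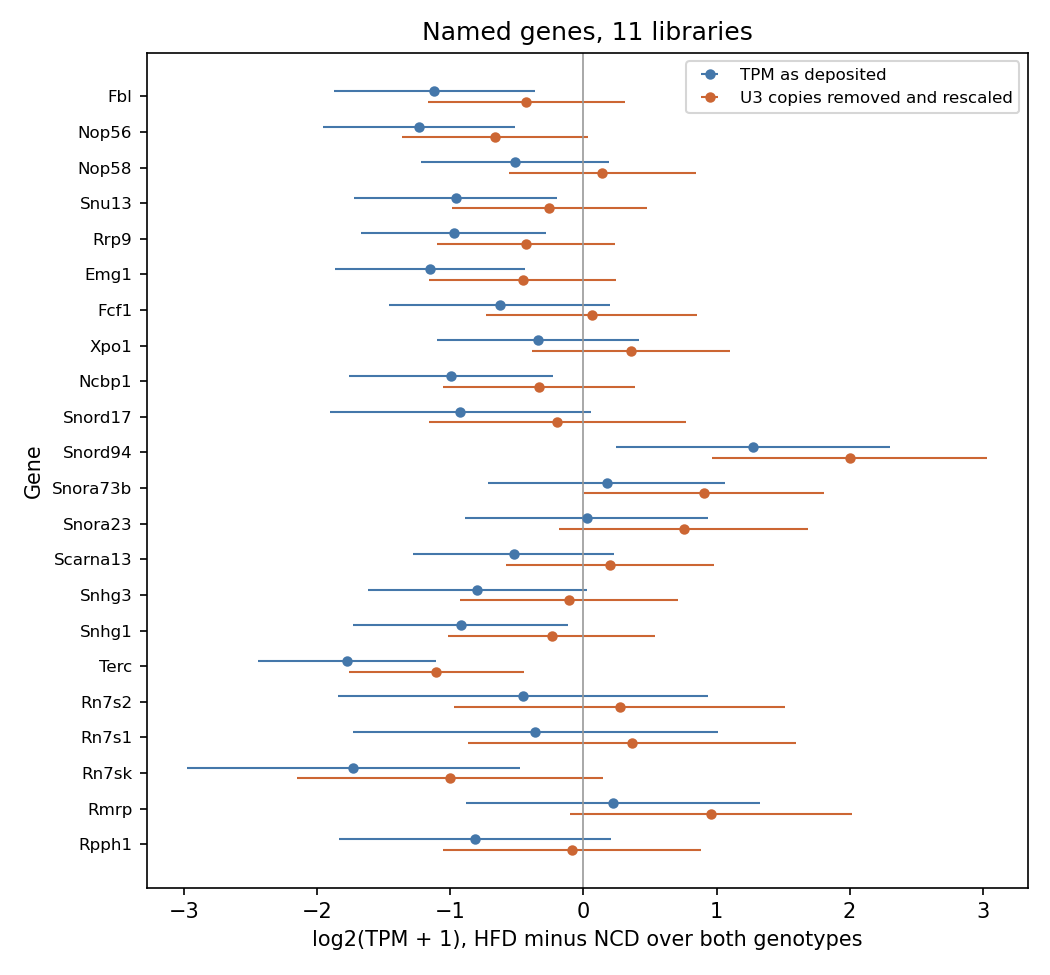
Difference of HFD minus NCD over both genotypes in log2(TPM + 1), with 95% intervals from limma, for the named genes with enough reads other than Casp4, U3, Snora17, Vaultrc5 and the 5 genes most like U3, in the 11 libraries that hold reads. Blue is TPM as deposited and orange is TPM rescaled after removal of the U3 copies; orange points lie to the right of blue points for every gene shown, and of the genes drawn, Terc and Snord94 are those whose orange interval excludes 0 with an adjusted p under 0.05.

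Genes whose pattern over the libraries was most like that of summed U3 were found by Spearman's rho over all 12 libraries, which share groups and, in TPM, a common total, so no p is given. They were LOC115488077 (rho = 0.972), Gm22068 (0.944), Gm22513 (0.909), Gm25776 (0.902) and Scd1 (0.888). LOC115488077, Gm22068 and Gm22513 are annotated snRNA genes, and the last 2 have 164 bases and are 95.8% and 96.4% identical to the U1 spliceosomal RNA Rnu1b1, so reads of near-identical copies may be divided among them. Gm22068 lies on chromosome 11 inside Tex14, 16358 bases before Snord3b1. It was at 287 and 243 TPM in WT-NCD, 526, 1155 and 880 in WT-HFD, 193, 355 and 527 in Casp11-/- NCD, and 916, 675 and 596 in Casp11-/- HFD, so the diets overlapped at Casp11-/- NCD replicate 3. Scd1, the stearoyl-CoA desaturase that makes monounsaturated fatty acids, was at 680 to 1875 TPM on HFD and 317 to 549 TPM on NCD. Without the WT-NCD file that holds no reads, rho over 11 libraries was 0.964 for LOC115488077, 0.927 for Gm22068 and 0.855 for Scd1, and only LOC115488077 of the 5 stayed among the 5 highest. The annotated snoRNA genes Gm25053 (rho = 0.982) and Gm25617 (0.973) then led.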

How the data were processed

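Total RNA of the liver immune cell fraction from 12 mice was made into random-primed stranded libraries, with ribosomal cDNA cleaved by probes. Single-end reads of 75 bases were aligned to mm10 with STAR, and TPM was calculated by the authors with Qlucore Omics Explorer. The deposited values are scores in TPM per gene, raised to a floor of 1.01, and are not counts. They sum to 1000353 to 1022495 per library. In each file 6 rows without a gene name were left out. Gene lengths were read from the file without reads (WT-NCD replicate 3) and reads recovered as TPM × length, for genes up to 13215 bases.

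Tests were made with limma 3.58.1 in R 4.3.3, with a mean-variance trend, on log2(TPM + 1) of genes that exceeded the floor in 3 or more libraries, 4 groups sharing 1 spread, two-sided, with Benjamini-Hochberg adjustment and a threshold of 0.05. Fits on genes with 10 recovered reads, with U3 removed, and limma voom were added after the data were seen. The library totals given to voom left out the U3 reads. The limma step was tested on simulated data. U3 and the gene lists were chosen with earlier results of these data known. Named genes were all U3 and core protein genes, members of other lists called in a diet contrast (at most 5) or else the 2 most abundant, the 5 most abundant noncoding genes, the 5 most like U3, and Casp4. Other steps used Python 3.11.15, pandas 2.3.3, numpy 2.4.6 and matplotlib 3.10.9. Replicates are separate mice per the labels.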

Additional observations from a re-analysis of the deposited data

How the results depend on the processing

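Under every alternative tried for the summed U3 level, the direction was the same. The log2 ratio of HFD to NCD means was 4.03 over both genotypes with all 12 files, among them the WT-NCD file without reads. With 1 library left out this ratio was 3.75 to 4.47. Over only the libraries that hold reads, the ratio was 3.88 in WT mice and 3.61 in Casp11-/- mice. Shares depend on TPM, and reads could be recovered only with lengths from 1 file.

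Counts of genes called by limma depended strongly on settings and on WT-NCD replicate 3, and the cause was not tested beyond that file. For HFD against NCD, 22 genes were called in WT, 0 in Casp11-/- and 108 over both genotypes, and 1 list member. With U3 removed from all libraries the first 2 counts were 5 and 1, with 0 list members. Protein-coding genes alone gave 13, 2 and 462, with 0 list members. A pseudocount of 0.1 gave 39 in WT. Genes above the floor in every library gave 72, 2 and 601, 7 list members and 1 interaction gene. Spread from the compared groups alone gave 0 in WT, 300.0 in Casp11-/- and 15 for genotype on HFD.

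Further settings were added after the data were seen, all without WT-NCD replicate 3. Genes with 10 reads gave 380.0, 159 and 4003, 31 list members, and 6 genes for genotype on NCD. With U3 also removed these were 283, 503, 1247, 4 and 4. limma voom gave 292 in Casp11-/-, 1218 over both genotypes and 3 list members. Rn7sk changed sign without WT-NCD replicate 3, to -1.73 on either gene filter and to -0.999 with voom.

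With 1 library left out, the counts ranged from 0 to 391 in WT, 0 to 198 in Casp11-/-, 1 to 3289 over both, 0 to 25 for list members, 0 to 10 for genotype on NCD and 0 to 1 for the interaction. The highest values were those without WT-NCD replicate 3, and 1454 genes were called over both genotypes without Casp11-/- NCD replicate 2. Of the 5 genes most like U3, 1 to 5 stayed with 1 library left out and 3 by Pearson's r.

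With a replicate block, 0 genes were called in WT, 16 over both genotypes and 0 list members. Correlations between libraries could not decide whether the numbers pair the mice. Of 15 same-number pairs 8 correlated above 0.1, with r from -0.327 to 0.467. Pairs of different number had r from -0.57 to 0.466. Without the file that holds no reads, the r values of the remaining WT-NCD libraries were equal and opposite, so they are not independent.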
